A study of Mus musculus with 9 samples.

Results

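The miR-181 family was followed in the hippocampus of mice given fine particulate matter (PM2.5) into the airways. Its members were taken as all array entries, of either arm, whose names begin with mmu-miR-181a-, mmu-miR-181b-, mmu-miR-181c- or mmu-miR-181d-. The prefix mmu-, for mouse, is left out below. This gave 10 of the 1247 mouse miRNAs on the array, of which 4 were 5p arms and 6 were 3p arms. Hippocampal RNA of young adult male C57BL/6 mice was labelled with Cy3 and hybridized to Agilent mouse miRNA arrays, with 3 arrays in each of 3 groups. The control mice received saline, and the other groups received PM2.5 at 1 mg/kg or 5 mg/kg, all by oropharyngeal aspiration on alternate days over 4 weeks and under isoflurane. No group carried a transgene or a deletion, and the labels do not state whether the saline of these arrays had been prepared with a blank filter. The whole hippocampus was used, so a smaller number of cells of a type and less RNA per cell cannot be told apart.

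A miRNA gene is transcribed as a hairpin, which is cut so that either strand, the 5p arm or the 3p arm, can be loaded into an Argonaute protein. The loaded arm pairs with mRNAs mainly through its seed, bases 2 to 8 counted from the 5′ end, and lowers their stability and translation. miR-181 is best known in the thymus, where miR-181a tunes the sensitivity of the T cell receptor, and it is also expressed in the brain, where miR-181 members have been linked to glutamate receptor expression, to inflammatory signalling in glia and to the survival of cells after ischemia. The comparison below asks whether levels of the members, or the balance between arms and between paralogs, differed after PM2.5 aspiration.

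The mature 5p sequences, from the RefSeq annotation of GRCm38.p6, are shown because they are so alike that the probes of the array bear on each other. The seed is in capitals.
miR-181a-5p: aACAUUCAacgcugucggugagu
miR-181b-5p: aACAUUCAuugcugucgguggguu
miR-181c-5p: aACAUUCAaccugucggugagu
miR-181d-5p: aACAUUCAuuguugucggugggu
All 4 share the seed ACAUUCA, and in the RefSeq table no other mature miRNA held it. Counted from the 5′ end, miR-181b-5p differs from miR-181a-5p by A9U, C10U and A21G and is 1 base longer, and miR-181d-5p differs from miR-181b-5p by C12U and is 1 base shorter. The sequence of miR-181c-5p is that of miR-181a-5p with base 11 deleted.

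The 3p arms are shown because they do not share that seed and differ more among themselves.
miR-181a-1-3p: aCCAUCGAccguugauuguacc
miR-181c-3p: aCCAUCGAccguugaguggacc
miR-181a-2-3p: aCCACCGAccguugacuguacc
miR-181b-1-3p: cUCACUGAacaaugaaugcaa
miR-181b-2-3p: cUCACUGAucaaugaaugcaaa
miR-181d-3p: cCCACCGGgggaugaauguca
The seed CCAUCGA is shared by miR-181a-1-3p and miR-181c-3p, and UCACUGA by miR-181b-1-3p and miR-181b-2-3p. The seeds of miR-181a-2-3p and miR-181d-3p were each held by a single entry.

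In GRCm38.p6 the hairpins lie in 3 clusters. Mir181a-1 (chr1:137966455-137966541) and Mir181b-1 (chr1:137966639-137966718) are on the plus strand, 97 bases apart, outside the span of any other annotated gene. Mir181a-2 (chr2:38852735-38852810) and Mir181b-2 (chr2:38853830-38853918) are on the plus strand, 1019 bases apart, within the spans of the nuclear receptor gene Nr6a1 and of the long non-coding RNA Nr6a1os. Mir181d (chr8:84178716-84178787) and Mir181c (chr8:84178873-84178961) are on the minus strand, 85 bases apart, and overlap no other annotated gene. The mature miR-181a-5p is the same from chromosomes 1 and 2, and so is miR-181b-5p, so the array gives 1 value for the products of both clusters. The 3p arms differ between those clusters and could be told apart.

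Of the 10 members, 5 were detected, each on all 9 arrays, and 5 were detected on none. The detected members were all 4 of the 5p arms and miR-181a-1-3p, with all 40 spots of each well above background on every array and 0 saturated. A miRNA was tested if every array of some group detected it, which held for 424 miRNAs, these 5 members among them. Signals, in scanner units after background subtraction, ran from 1202 to 2016 for miR-181a-5p, from 389.8 to 709.5 for miR-181b-5p, from 316 to 469 for miR-181c-5p, from 176 to 255 for miR-181d-5p and from 50.7 to 86.0 for miR-181a-1-3p. Signals of different probes depend on their own binding and give no order of abundance between members.

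The 5 members that were not detected were miR-181a-2-3p, miR-181b-1-3p, miR-181b-2-3p, miR-181c-3p and miR-181d-3p. Their signals lay between -4.34 and 5.95 units, while the lowest detected signal of an array lay between 5.99 and 8.10 units. The highest of these signals was that of miR-181c-3p, at 2.37 to 5.95 units. Its 13-base probe stayed between -2.07 and -0.45 units, and its 14-base probe gave 4.02 to 7.67 units, with at most 1 of 20 spots well above background on an array. No comparison between the groups was made for these 5 members, for which only the bound given by the lowest detected signal is known. All 4 probes of miR-181a-2-3p were made for a target that runs 3 bases past the end of the RefSeq mature sequence, and the part of this in its low signal was not tested. The arm opposite to each 5p arm was therefore measurable for 1 hairpin, Mir181a-1.

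The levels of the detected members are given as log2 of the signal over the 75th percentile of the array, which sets 0 at that percentile. For mmu-miR-181a-5p, control replicates 1 to 3 had log2 levels of 1.60, 1.32 and 1.34, those at 1 mg/kg had 1.25, 1.38 and 1.57, and those at 5 mg/kg had 1.21, 1.35 and 1.72. The groups overlapped, and the array at 5 mg/kg with the highest level lay above every control. For mmu-miR-181b-5p, the log2 levels were 0.12, -0.17 and -0.10 in the control group, -0.16, -0.019 and 0.028 at 1 mg/kg, and -0.50, -0.24 and 0.21 at 5 mg/kg. At 5 mg/kg replicates 1 and 2 lay below all controls and replicate 3 lay above all controls.

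For mmu-miR-181c-5p, the log2 levels were -0.32, -0.56 and -0.55 in the control group, -0.68, -0.76 and -0.49 at 1 mg/kg, and -0.77, -0.74 and -0.39 at 5 mg/kg. At each dose, 2 of the 3 PM2.5 arrays lay below all controls, and the third lay among them. For mmu-miR-181d-5p, which shares its cluster with miR-181c-5p, the log2 levels were -1.31, -1.48 and -1.44 in the control group, -1.52, -1.57 and -1.41 at 1 mg/kg, and -1.57, -1.55 and -1.26 at 5 mg/kg. The order of the arrays was close to that of miR-181c-5p, with replicate 3 at 5 mg/kg above all controls. For mmu-miR-181a-1-3p, the log2 levels were -2.77, -3.14 and -3.16 in the control group, -3.27, -3.17 and -3.07 at 1 mg/kg, and -3.45, -3.29 and -2.84 at 5 mg/kg. Here control replicate 1 was the highest of all arrays and replicate 3 at 5 mg/kg came next.

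**Figure D1:**
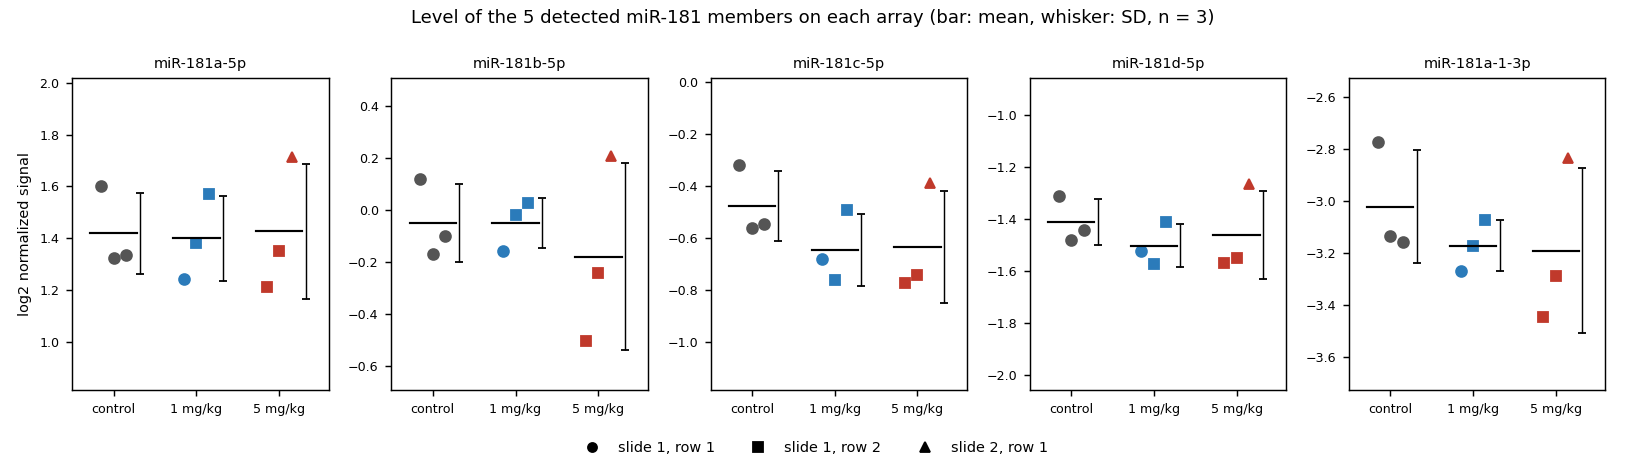
Log2 normalized signal of the 5 detected members on each of the 9 arrays, with 1 panel per member and its own vertical axis of equal span, points for arrays, bars for group means and whiskers for the SD (n = 3), and the marker shape giving the slide and the row of the array. In each panel control replicate 1 and 5 mg/kg replicate 3 are the 2 highest points, and the groups overlap.

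At 5 mg/kg, 0 of the 5 tested members passed an unadjusted p under 0.05 against the control in limma, a linear model with moderated variances fitted to all 424 miRNAs, beside 9.43% of all tested miRNAs. After Benjamini-Hochberg adjustment 0 of the 5 members passed 0.05, beside 0.0% of all. The log2 change of miR-181a-5p was 0.0064 (standard error 0.15, 95% interval -0.33 to 0.34, adjusted p = 0.984 in limma). The other members had log2 changes of -0.13 for miR-181b-5p (standard error 0.17), -0.16 for miR-181c-5p (standard error 0.13), -0.050 for miR-181d-5p (standard error 0.10) and -0.17 for miR-181a-1-3p (standard error 0.17). Their adjusted p-values in limma lay between 0.711 and 0.884. The median log2 change of the 5 members was -0.13, and that of all tested miRNAs was -0.0035. The 95% intervals of the 5 members ran together from -0.55 to 0.34, which with 3 arrays per group leaves room for changes up to those bounds.

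At 1 mg/kg, again 0 of the 5 members passed an unadjusted p under 0.05 in limma, beside 7.78% of all tested miRNAs. At an adjusted p under 0.05, 0 of the 5 passed, beside 0.236% of all. The lowest unadjusted p was that of miR-181c-5p, at 0.219 in limma, with a log2 change of -0.17 (standard error 0.13, adjusted p = 0.799). Log2 changes were -0.020 for miR-181a-5p, -0.0012 for miR-181b-5p, -0.090 for miR-181d-5p and -0.15 for miR-181a-1-3p. The median over the 5 members was -0.090, beside -0.032 over all tested miRNAs, and their 95% intervals ran from -0.53 to 0.39. Both doses were compared with the same 3 control arrays, so their changes are not independent.

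Between 5 and 1 mg/kg, 0 of the 5 members passed an unadjusted p under 0.05 in limma, beside 3.77% of all tested miRNAs, and 0 of the 5 passed after adjustment, beside 0.236% of all. The lowest unadjusted p was 0.468, for miR-181b-5p, with a log2 change of -0.13 from 1 to 5 mg/kg and an adjusted p of 0.995 in limma. In each of the 3 comparisons the arrays of both groups overlapped for all 5 members. Among all tested miRNAs the groups did not overlap for 16.0% at 5 mg/kg and 12.3% at 1 mg/kg against the control, and for 7.31% between the doses.

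**Figure D2:**
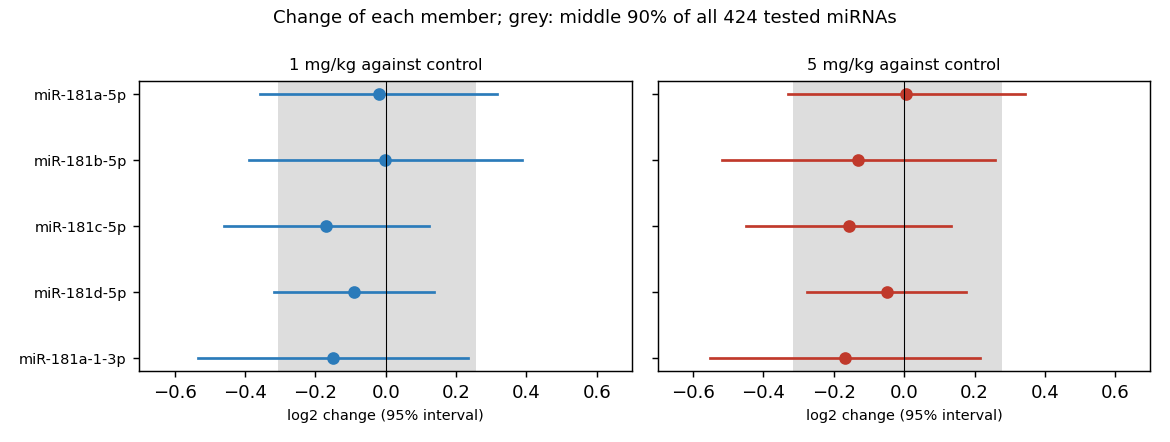
Log2 change against the control with its 95% interval from limma (horizontal axis) for each of the 5 detected members (vertical axis), at 1 mg/kg on the left and at 5 mg/kg on the right, with a grey band over the middle 90% of the changes of all 424 tested miRNAs. All 5 intervals at each dose include 0, and all changes lie inside the band.

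The 5 members varied together from array to array, and arrays of the same group could lie far apart. For 5 of 5 members the 2 highest arrays were control replicate 1 and 5 mg/kg replicate 3, a pattern found in 17.0% of the 395 miRNAs detected on all arrays. Averaged over the 5 members, the deviation from each member's own mean was 0.23 on the log2 scale on control replicate 1, 0.26 on 5 mg/kg replicate 3 and -0.25 on 5 mg/kg replicate 1, the lowest array for 4 of 5 members. The other 6 arrays lay between -0.12, for 5 mg/kg replicate 2, and 0.095, for 1 mg/kg replicate 3. The 5 mg/kg group thus held the 2 lowest arrays and the highest.

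The position of the arrays overlapped with the dose. On slide 1, the controls shared row 1 with replicate 1 of the 1 mg/kg group, while row 2 carried the other two arrays of that group and replicates 1 and 2 of the 5 mg/kg group. Slide 2 carried a single array, replicate 3 of the 5 mg/kg group. Without that array, 3 of the 5 members were lower than the control at an unadjusted p under 0.05 in limma, beside 28.3% of all tested miRNAs, of which 13.7% of all tested were lower. They were miR-181b-5p with a log2 change of -0.32, miR-181a-1-3p with -0.35 and miR-181c-5p with -0.28. Each had an adjusted p of 0.165 in limma, so 0 of the 5 passed after adjustment. The log2 changes of miR-181a-5p and miR-181d-5p were -0.14 and -0.15 in that fit.

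Within row 1 the 1 mg/kg array lay below the mean of the 3 controls for all 5 detected members, by log2 differences from -0.25 for miR-181a-1-3p to -0.11 for miR-181b-5p. The 5 mg/kg array that also lay in row 1, replicate 3 on slide 2, was above the control mean for all 5, by differences from 0.089 for miR-181c-5p to 0.29 for miR-181a-5p. Within row 2 the mean of the 5 mg/kg arrays lay below that of the 1 mg/kg arrays for all 5, by differences from -0.38 for miR-181b-5p to -0.068 for miR-181d-5p. With the row as a block in limma, which placed 5 mg/kg replicate 3 in row 1 with the controls although it was on another slide, the log2 changes at 5 mg/kg were 0.073 for miR-181a-5p, 0.0097 for miR-181b-5p, -0.053 for miR-181c-5p, 0.038 for miR-181d-5p and -0.041 for miR-181a-1-3p. In that fit 0 of the 5 were at an unadjusted p under 0.05, beside 3.3% of all tested miRNAs. Row, slide and dose cannot be told apart fully in this layout.

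A difference between members within an array does not depend on how arrays are scaled, so the balance of arms and of paralogs was compared on these differences. Their size reflects the binding of the probes, and only their change between groups is described. Of 7 such differences, 1 between arms and 6 between paralogs, 1 had an exact permutation p under 0.05 for the F statistic over the 3 groups and 0 had after Benjamini-Hochberg adjustment over the 7. Among all 77815 pairs of miRNAs detected on all arrays, 5.69% had an exact permutation p under 0.05.

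miR-181a-5p and miR-181a-1-3p are the arms of the Mir181a-1 hairpin, although miR-181a-5p also comes from Mir181a-2. The log2 difference of the 5p minus the 3p arm was 4.37, 4.46 and 4.50 on the control arrays, 4.52, 4.56 and 4.64 at 1 mg/kg, and 4.66, 4.64 and 4.55 at 5 mg/kg. All 6 PM2.5 arrays lay above all 3 controls, as the differences of 5.37% of all pairs of miRNAs did on one side or the other. The group means were 4.44 ± 0.06, 4.57 ± 0.07 and 4.62 ± 0.06 (SD, n = 3), with an exact permutation p of 0.0464 and an adjusted p of 0.200. Within row 1 the 1 mg/kg array exceeded the control mean by 0.074, with a control SD of 0.063. The 5 mg/kg array in row 1, replicate 3 on slide 2, exceeded the control mean by 0.11. Within row 2 the mean at 5 mg/kg exceeded that at 1 mg/kg by 0.051. The unadjusted p did not pass 0.05 with normexp background correction (exact permutation p = 0.671) or in the deposited log2 table (0.600). The normexp correction added an offset of 50 units, beside 20.9 to 49.6 units for the probes of miR-181a-1-3p. An offset shrinks log2 changes of low signals more than those of high ones, and its part in that p was not tested. The exact permutation p also did not pass 0.05 without control replicate 1 (0.114) or control replicate 2 (0.075). Nor did it without 1 mg/kg replicate 2 (0.0607) or without either of 5 mg/kg replicates 1 and 2 (0.0786 each). It stayed under 0.05 without control replicate 3 (0.0429), 1 mg/kg replicate 1 (0.0429), 1 mg/kg replicate 3 (0.0214) or 5 mg/kg replicate 3 (0.025), and with the mean of log2 over probes (0.0357). With arrays left out in turn, the change at 5 mg/kg ran from 0.14 to 0.21. That change was 0.12 with normexp correction and 0.20 in the deposited table, beside 0.17 in the main setting.

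Among the paralogs, miR-181a-5p minus miR-181c-5p was also higher on all 6 PM2.5 arrays than on the controls. The log2 difference was 1.92, 1.89 and 1.88 in the control group, 1.93, 2.14 and 2.07 at 1 mg/kg, and 1.99, 2.09 and 2.10 at 5 mg/kg. The controls lay within a narrow range, and 1 mg/kg replicate 1 was the PM2.5 array nearest to them. The group means were 1.90 ± 0.02, 2.05 ± 0.11 and 2.06 ± 0.06 (SD, n = 3), with an exact permutation p of 0.107 and an adjusted p of 0.200. Within row 1 the 1 mg/kg array lay 0.031 above the control mean. The 5 mg/kg array in row 1, replicate 3 on slide 2, lay 0.21 above the control mean. Within row 2 the mean at 5 mg/kg lay below that at 1 mg/kg, by a log2 difference of -0.064.

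The remaining paralog differences were less regular. miR-181a-5p minus miR-181b-5p had group means of 1.47, 1.45 and 1.61, and the 5 mg/kg arrays did not overlap with the control (exact permutation p over the 3 groups = 0.0857, adjusted p = 0.200). miR-181c-5p minus miR-181d-5p, the products of 1 cluster, had means of 0.93, 0.86 and 0.83, again without overlap at 5 mg/kg (exact permutation p = 0.114, adjusted p = 0.200). miR-181b-5p minus miR-181c-5p did not overlap with the control at 1 mg/kg, with means of 0.43, 0.60 and 0.46 (exact permutation p = 0.268). The differences of miR-181d-5p from miR-181b-5p and from miR-181a-5p overlapped at both doses (exact permutation p = 0.364 and 0.625). In all, 3 of the 7 differences did not overlap with the control at 1 mg/kg and 4 of 7 at 5 mg/kg, beside 13.7% and 14.7% of all pairs of miRNAs. The 7 differences are built from 5 members and share them, so they are not independent of each other.

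**Figure D3:**
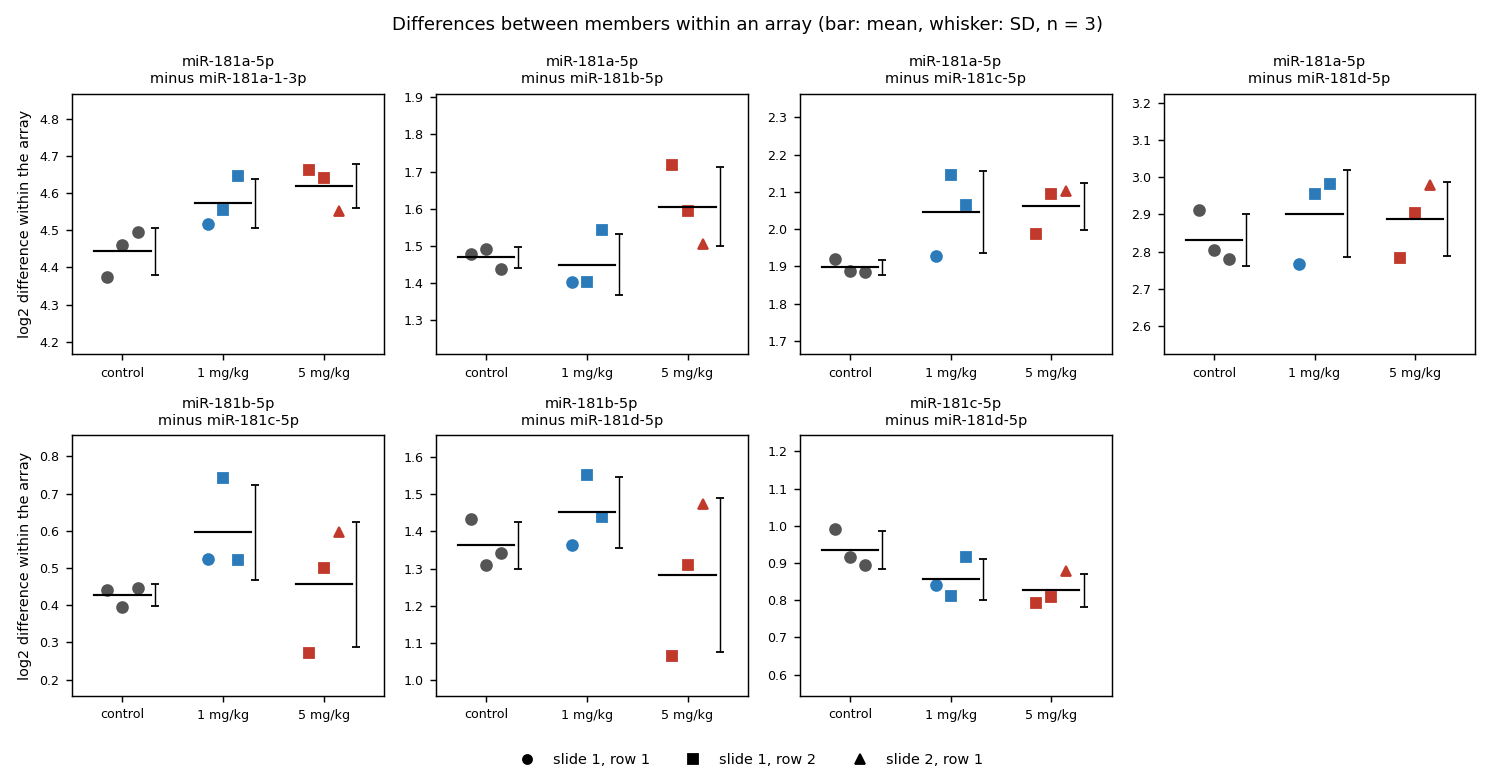
Log2 difference between 2 members within each array (vertical axis) by group (horizontal axis), with 1 panel for the pair of arms and 6 for the pairs of paralogs, points for arrays, bars for group means, whiskers for the SD (n = 3) and marker shapes for slide and row. In the panels of miR-181a-5p minus miR-181a-1-3p and of miR-181a-5p minus miR-181c-5p all 6 PM2.5 points lie above the 3 controls.

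Each detected member was read by 2 probes of different length. The RNA stretches that the 13-base probes pair with are shown for miR-181a-5p and miR-181b-5p, with matching stretches of other paralogs and their mismatches in capitals. For the miR-181b-5p target only the stretch of miR-181d-5p is shown.
13-base target of miR-181a-5p: gcugucggugagu
the same stretch in miR-181b-5p: gcugucggugGgu
the same stretch in miR-181c-5p: Ccugucggugagu
the same stretch in miR-181d-5p: gUugucggugGgu
13-base target of miR-181b-5p: gcugucggugggu
the same stretch in miR-181d-5p, against the miR-181b-5p target: gUugucggugggu
Aligned without gaps, the 13-base probe of miR-181a-5p thus had 1 mismatch to miR-181b-5p and to miR-181c-5p, and its 14-base probe had 2 to each. The 13-base probe of miR-181b-5p had 1 mismatch to miR-181a-5p, 1 to miR-181d-5p and 2 to miR-181c-5p. Its 14-base probe had 2, 1 and 3 mismatches to these paralogs in the same order. The 16-base and 17-base probes of miR-181d-5p had 1 mismatch to miR-181b-5p. The probes of miR-181c-5p, of 18 and 19 bases, had at least 4 mismatches to each of the other paralogs in such an alignment. With 1 base left unpaired, base 11 of miR-181a-5p, they matched miR-181a-5p at all 18 and 19 bases, and the 14-base probe of miR-181a-5p likewise matched miR-181c-5p at 13 bases. With 1 base left unpaired the miR-181c-5p probes still had at least 3 mismatches to miR-181b-5p and 4 to miR-181d-5p. How much a paralog adds to the signal of another's probe was not tested.

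The readings of both probes were then compared within each array. The log2 difference of the shorter minus the longer probe of miR-181a-5p was -1.59, -1.49 and -1.53 in the control group, -1.50, -1.37 and -1.41 at 1 mg/kg, and -1.32, -1.35 and -1.44 at 5 mg/kg. The 5 mg/kg arrays lay above all controls, and 1 array at 1 mg/kg lay among the controls. The exact permutation p over the 3 groups was 0.0571, with an adjusted p of 0.188 over the 5 probe pairs. At 5 mg/kg the shorter probe of miR-181a-5p had a log2 change of 0.13 and the longer of -0.039, so the direction of miR-181a-5p depended on the probe. For miR-181b-5p the difference between its probes was higher on all 6 PM2.5 arrays than on the controls, with means of -0.67, -0.61 and -0.62 (exact permutation p = 0.075, adjusted p = 0.188). The probes of miR-181c-5p, miR-181d-5p and miR-181a-1-3p overlapped between the groups (exact permutation p = 0.779, 0.361 and 0.639). The same difference was taken for all 313 miRNAs that were detected on all arrays and read by 2 probes with signals above 0. Of the 5 members, 2 did not overlap with the control at 5 mg/kg, beside 18.5% of these miRNAs, and 1 had all 6 PM2.5 arrays on one side of the controls, beside 4.79%. An exact permutation p under 0.05 was found for 0 of the 5 members and for 7.99% of these miRNAs.

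With the longer probes alone, the difference of the arms had an exact permutation p of 0.075 in place of 0.0464. Its change at 5 mg/kg was 0.11 with the longer probes alone and 0.33 with the shorter probes alone, beside 0.17 with both. The change of miR-181a-5p minus miR-181c-5p at 5 mg/kg was 0.12 with the longer probes, 0.29 with the shorter and 0.16 with both. Both differences were thus larger in the shorter probes.

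**Figure D4:**
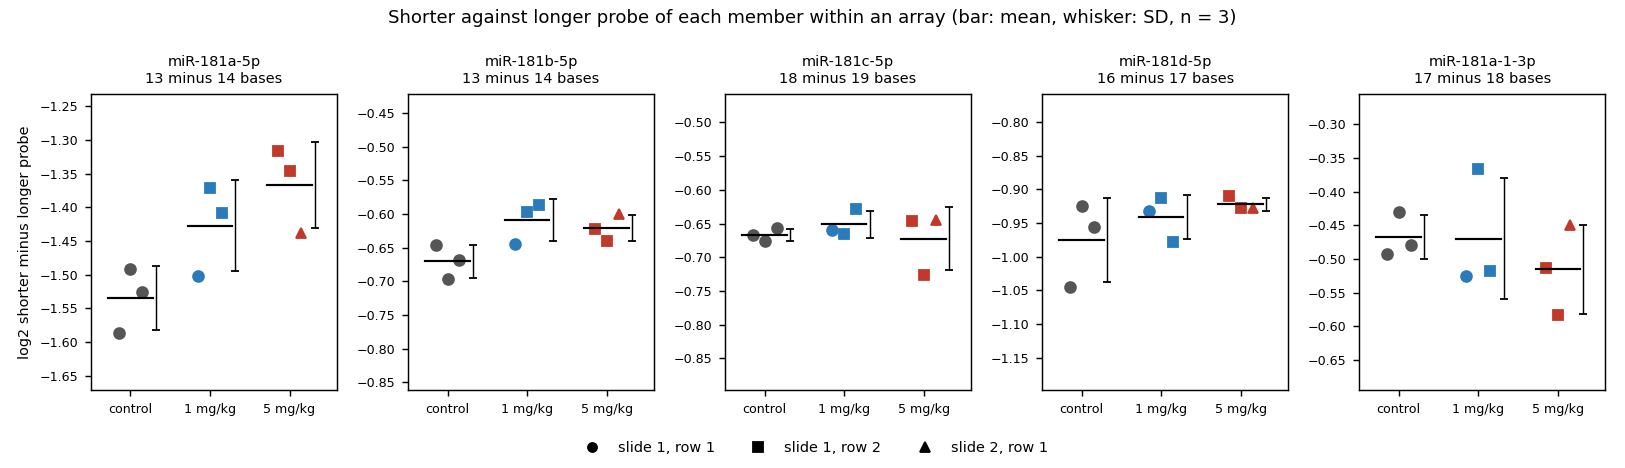
Log2 signal of the shorter minus the longer probe of each of the 5 detected members within each array (vertical axis) by group (horizontal axis), with points for arrays, bars for group means, whiskers for the SD (n = 3) and marker shapes for slide and row. For miR-181a-5p the 3 arrays at 5 mg/kg lie above all controls, and for miR-181b-5p all 6 PM2.5 arrays do.

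Across the 9 arrays the 4 paralogs were correlated in all 6 pairs. Pearson's r lay between 0.78, for miR-181b-5p and miR-181c-5p, and 0.97, for miR-181c-5p and miR-181d-5p, with exact permutation p-values adjusted over the 6 pairs of 0.000513 to 0.0105. Spearman's rho lay between 0.65 and 0.97, with adjusted exact permutation p-values of 0.000992 to 0.0666, the highest being that of miR-181a-5p and miR-181d-5p. Without the 2 arrays farthest from the median of the first paralog of a pair, r over the remaining 7 arrays lay between 0.59 and 0.96. The paralogs share the scaling factor of each array, and without scaling r lay between 0.89 and 0.98. Unscaled signals share the overall brightness of each array instead, so that range does not remove what the arrays share. No value over all pairs is given for unscaled signals. Over all pairs of miRNAs detected on all arrays the median r was 0.027 and the 75th percentile 0.41. The rows of the slide held at most 4 arrays, too few for a correlation within a row.

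The miRNAs whose pattern over the 9 arrays was most like that of each paralog were sought among the other 423 tested miRNAs, by the root mean square difference of log2 levels after each was centred on its own mean. The nearest to miR-181a-5p were miR-24-3p at 0.051, miR-27a-3p at 0.056 and miR-27b-3p at 0.059, against a median of 0.213 over all, and the other members ranked from 13 to 23. Those nearest to miR-181b-5p were miR-15b-5p at 0.073, miR-192-5p at 0.078 and miR-181a-1-3p at 0.080. Those nearest to miR-181c-5p were miR-23a-3p at 0.047, let-7g-5p at 0.051 and miR-23b-3p at 0.052, with its cluster partner miR-181d-5p at rank 6. Those nearest to miR-181d-5p were miR-26a-5p at 0.033, miR-124-3p, an abundant neuronal miRNA, at 0.039 and let-7d-5p at 0.043, with miR-181c-5p at rank 15. The other members ranked from 3 to 31 for miR-181b-5p, from 6 to 77 for miR-181c-5p and from 15 to 144 for miR-181d-5p. A member of the family was thus among the 3 nearest miRNAs for miR-181b-5p but for none of the other 3 paralogs.

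A list of 12 other miRNAs known for roles in inflammation and the stress of neurons was set beside the family. All 12 were tested, and 0 had an unadjusted p under 0.05 in limma at either dose, beside 9.43% of all tested miRNAs at 5 mg/kg and 7.78% at 1 mg/kg. Their median log2 change was -0.0068 at 5 mg/kg and -0.051 at 1 mg/kg. miR-146a-5p, which restrains Toll-like receptor signalling, had an adjusted p of 0.970 in limma at 5 mg/kg, with a log2 change of 0.0060 (standard error 0.06). miR-155-5p, which is induced in activated immune cells, had a log2 change of 0.13 at 5 mg/kg (standard error 0.10) and 0.22 at 1 mg/kg (standard error 0.10). miR-21a-5p, which is induced in many injured tissues, had a log2 change of -0.14 at 5 mg/kg (standard error 0.20). The largest changes at 5 mg/kg went both ways, with -0.66 for miR-34a-5p (standard error 0.55) and 0.26 for miR-210-3p (standard error 0.23). The lowest unadjusted p at that dose was 0.0633 in limma, for miR-9-5p, with a log2 change of 0.14. The others on the list were let-7i-5p, miR-124-3p, miR-125b-5p, miR-132-3p, miR-146b-5p and miR-223-3p.

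Markers of the cell types in the tissue were read on the same arrays, and their counts at an unadjusted p stand beside the same 9.43% at 5 mg/kg and 7.78% at 1 mg/kg. No marker passed after adjustment. All 4 neuronal markers, miR-124-3p, miR-9-5p, miR-9-3p and miR-128-3p, were detected on all arrays, and 0 of 4 had an unadjusted p under 0.05 in limma at either dose. Lymphocytes also carry miR-181a, and of their 4 markers 3 were tested. Among these 1, miR-142-3p, was higher at 5 mg/kg at an unadjusted p under 0.05, with a log2 change of 0.21 (standard error 0.08) and an adjusted p of 0.469 in limma, and miR-142-5p was not detected on any array. The summed level of the lymphocyte markers, on the scale where the 75th percentile of an array is 1, was 0.70 to 0.71 in the control group, 0.66 to 0.74 at 1 mg/kg and 0.72 to 0.79 at 5 mg/kg.

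Of the other marker lists, 0 of 3 oligodendrocyte markers and 0 of 2 endothelial markers had an unadjusted p under 0.05 in limma at either dose. Of the 2 tested myeloid markers the same miR-142-3p had an unadjusted p under 0.05 at 5 mg/kg. Of the 2 tested red cell markers 1, miR-451a, was higher at 5 mg/kg at an unadjusted p under 0.05, with a log2 change of 0.26 (standard error 0.10) and an adjusted p of 0.469 in limma. Of 3 choroid plexus markers 1, miR-204-5p, was higher at 1 mg/kg at an unadjusted p under 0.05, with a log2 change of 0.77 (standard error 0.28) and an adjusted p of 0.538 in limma.

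The summed level of each list was then read on control replicate 1 and 5 mg/kg replicate 3, on which the family was highest. On both, the lists of neurons, oligodendrocytes, lymphocytes, endothelium and inflammation were at the top of their group. The inflammation list holds miR-124-3p and miR-9-5p of the neuron list and miR-155-5p of the lymphocyte list, so these sums are not separate readings. For lymphocytes the controls spanned only 0.701 to 0.707. The neuronal sum was 182 and 176 on these arrays, within ranges of 158 to 182 in the control group, 137 to 161 at 1 mg/kg and 152 to 176 at 5 mg/kg. That of the inflammation list was 154 and 158, within 136 to 154, 130.3 to 149 and 137 to 158. The oligodendrocyte sum was 6.04 and 6.74, within 4.14 to 6.04, 5.08 to 6.35 and 2.89 to 6.74. The endothelial sum was 6.02 and 6.34, within 5.48 to 6.02, 5.57 to 6.06 and 5.53 to 6.34, and the lymphocyte sum was 0.71 and 0.79. The remaining lists were at the bottom of the control group on control replicate 1. For red cells the sum was 2.90 and 4.00, within 2.90 to 3.71, 2.99 to 3.52 and 3.79 to 4.10. For myeloid cells it was 0.261 and 0.290, within 0.261 to 0.278, 0.273 to 0.315 and 0.289 to 0.325, and for choroid plexus 3.07 and 2.84, within 3.07 to 4.88, 5.36 to 8.74 and 2.84 to 5.56. The sums of red cells, myeloid cells and lymphocytes at 5 mg/kg lay above those of all controls, as did that of choroid plexus at 1 mg/kg. The myeloid and lymphocyte lists share miR-142-3p. Among single tested miRNAs, 16.0% did not overlap with the control at 5 mg/kg and 12.3% at 1 mg/kg, and no such share was computed for sums. The part of any of these lists in the levels of miR-181 was not tested.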

How the data were processed

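Hippocampal RNA of mice was measured on 9 arrays of 1 colour. The authors scanned the arrays with Agilent Feature Extraction 10.7, and the deposited intensity values are background-subtracted signals per spot that were not normalized between arrays. A deposited table of log2 values, of which the normalization is not given in the sources used here, served as an alternative. Outlier spots (1875 to 2290 of 49880 per array) were left out, spots of a probe averaged, probes of a miRNA summed, each array divided by the 75th percentile of the 395 miRNAs detected on all arrays, values raised to the lowest detected signal of the array, and log2 taken. The 75th percentile lay between 492 and 614 units, and 410 to 436 miRNAs were detected per array. The number of arrays limits the precision, and p-values measure the spread between these arrays.

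Groups were compared with limma 3.58.1 in R 4.3.3, with 1 mean per group over all 9 arrays and Benjamini-Hochberg adjustment over 424 miRNAs. Differences within arrays were tested by two-sided exact permutation over all 1680 arrangements of the arrays, and 3 against 3 arrays cannot go below p = 0.1. The fits were tested on simulated data with independent noise and a change larger than that of any member. That test does not show what the fits detect at the sizes of change seen here. The members, the inflammation list and the marker lists were chosen with earlier results of these data known. All members were named, with the 3 miRNAs nearest in pattern to each 5p arm. The settings varied, 17 in all, were other scalings, background corrections, filters, probe summaries, models, blocks and the deposited table, and 2 more on single probes were added after seeing the data. The paper describes the arrays of the control and 5 mg/kg groups as 3 individual mice each, and does not describe the 1 mg/kg arrays. The submitters' design text speaks of 3 separate experiments with 3 replicates per group, and the labels do not tie arrays to experiments. Whether the arrays of a group come from 1 experiment is therefore not known. Deviations from the group means were correlated between arrays of equal replicate number, with r from -0.65 to 0.74 over 9 pairs of arrays. Some such pairs thus deviated together and others in opposite directions, and arrays of unequal number were not compared. Arrays were not paired in the main fits, and no 2 arrays held a spot of the same processed signal. Sequences came from RefSeq. The positions that the files give for the probes of miR-181c and miR-181d were mirrored within their hairpins, so RefSeq positions were used.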

Additional observations from a re-analysis of the deposited data

How the results depend on the processing

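No member passed an adjusted p under 0.05 in limma under any alternative that kept to detected miRNAs. The counts of members at an unadjusted p under 0.05, 0 of 5 in each comparison, moved as follows. With the slide as a block, which amounts to leaving out 5 mg/kg replicate 3, they were 3 at 5 mg/kg against the control and 1 at 5 against 1 mg/kg. Without a filter on detection, 5 of the 10 members were called at 1 mg/kg, which were the undetected members, all set to the lowest detected signal of each array. With each array left out in turn the counts ran from 0 to 3 at 5 mg/kg against the control, from 0 to 0 at 1 mg/kg and from 0 to 1 between the doses. The replicate block changed no call, with log2 changes at 5 mg/kg from -0.17 for miR-181a-1-3p to 0.0064 for miR-181a-5p. The labels do not say what arrays of equal number share beyond that number.

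Changes of miR-181a-5p, miR-181b-5p and miR-181d-5p turned sign in some settings, among them that of -0.13 for miR-181b-5p at 5 mg/kg. At 5 mg/kg, miR-181a-5p had -0.14 with the slide as a block, miR-181b-5p had 0.026 from the total signals of the files and 0.0097 with a block for the slide row, and miR-181d-5p had 0.064 without scaling, 0.11 from the total signals and 0.038 with the row block. At 1 mg/kg, miR-181a-5p had 0.015 scaled by the 75th percentile over all miRNAs, 0.025 with quantile normalization, 0.089 without scaling, 0.12 from the total signals, 0.0049 with the mean over probes, 0.024 in the deposited table and 0.046 with the row block. miR-181b-5p at 1 mg/kg had 0.035 scaled by the 75th percentile over all miRNAs, 0.11 without scaling, 0.14 from the total signals, 0.0055 with the mean over probes, 0.0040 in the deposited table and 0.14 with the row block, and miR-181d-5p had 0.019 without scaling and 0.049 from the total signals. Without scaling the median of all tested miRNAs was 0.11 at 5 mg/kg and 0.078 at 1 mg/kg, and from the total signals it was 0.14 and 0.10. For 126 of the 395 miRNAs detected on all arrays, but for none of the 5 detected members, the total signal of the files was off its common factor to the summed probes by over 5% on an array. Leaving out each array gave log2 changes at 5 mg/kg from -0.14 to 0.11 for miR-181a-5p, from -0.32 to 0.033 for miR-181b-5p and from -0.15 to 0.0033 for miR-181d-5p, and at 1 mg/kg from -0.11 to 0.070 for miR-181a-5p and from -0.061 to 0.084 for miR-181b-5p.

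The difference of the arms, 1 of 1 at an unadjusted exact permutation p under 0.05, was 0 with normexp background correction, 0 in the deposited table and 0 with the longer probe alone, and ran from 0 to 1 with arrays left out. Of the 6 paralog differences, 0 were under 0.05, 1 was in the deposited table, and the count ran from 0 to 1 with arrays left out. In the deposited table that difference was miR-181a-5p minus miR-181c-5p (exact permutation p = 0.025, adjusted p = 0.175). The cause of these moves was not tested. With 3 arrays per group, and with dose and position on the slides overlapping, changes of the sizes seen here could not be separated from the spread between arrays.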
